A study of Danio rerio with 116 samples.

Results

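The fem-rDNA region is a stretch of zebrafish chromosome 4, from position 76313463 to 76330850 in the coordinates of the deposited calls (build GRCz10 per the labels), and its members here are all CG positions with at least 1 methylation call in it. There were 1334 such positions of 3170751 in the whole series, with 123865 calls on 9150 reads in 108 of the 116 libraries. The region made up 3.40% of all calls, and its reads were CG-rich, with a median of 13 calls per read against 3 over all reads. A position is a cytosine on 1 strand, so that a CG read on both strands gives 2 neighbouring positions, and 585 pairs of neighbouring positions were found.

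Germline (EGFP+) and control (EGFP negative) cells of the line vas:eGFP were sorted by fluorescence from fish of 14 ages, after whole-fish dissociation up to 14 days post fertilisation (dpf) and after dissection of the gonadal region from 21 dpf. The transgene carries the promoter of vasa, a gene used as a germline marker, so that EGFP+ cells are those with reporter protein and were not split by type of germ cell. The groups compared are EGFP+ and control cells at 9 ages from 1 to 28 dpf (1, 2, 4, 7, 11 and 14, then 21, 25 and 28), in which each library is a pool of 10 fish of both sexes, and EGFP+ and control cells of presumptive females and males at 35, 40, 45 and 50 dpf and of females and males at 70 dpf, in which each library comes from 1 fish. Presumptive sex was read by the study from how brightly the gonad showed EGFP, which per the paper goes with oocyte number. Comparisons of presumptive females with males are therefore not independent of oocyte content. Each group has 3 libraries, lettered A to C, except EGFP+ cells at 28 dpf with 5. No treatment was given, every fish carries the transgene, and the suspensions passed a 40 µm filter before sorting. These are DNA libraries, so cell labels could not be checked against marker expression.

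Ribosomal DNA holds the genes for the RNA of ribosomes in tandem copies, and each 45S unit is transcribed as a precursor that is cut into the 18S, 5.8S and 28S RNAs. In somatic cells many copies are kept silent, and methylated copies are typically among the silent ones. Oocytes of fish and amphibians need large stores of ribosomes, and many species make extra copies of ribosomal DNA in them. Some fish have a separate set of ribosomal genes used in oocytes, and fem-rDNA is the name the study gave to such a set in zebrafish. Where the 18S, 5.8S and 28S genes lie among the positions was not analysed here, since no genome of this build was used.

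The region, and with it its positions, was chosen by the density of calls in the merged EGFP+ libraries of 21, 25 and 28 dpf. The coverage and methylation of those libraries are therefore given as a description without a test. Over all libraries the total number of calls ranged from 8735 to 163870 with a median of 22682.5. Calls in the region were very unevenly spread, and replicate A of the EGFP+ cells of females at 40 dpf held 39.7% of them, with 49157 calls. Methylation of the region is the percentage of methylated calls in libraries with at least 10 calls there, which 106 libraries had, so that a library rather than a call counts as 1 replicate. Reads of 1 library are PCR products without molecular identifiers, and intervals and floors for single libraries cover counting error only. Cytosines that bisulfite failed to convert are called methylated, and the study bounded this by calls outside CG. Such calls were not used here, so the part of failed conversion in percentages of a few points or less was not tested.

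The positions fell into 2 parts divided by a stretch of 4666 bp without a call. The part near the start of the region, at distances of 1 to 1845 bp, held 32 positions with 745 calls on 95 reads, and 13 of these calls were methylated. The main part, at distances of 6512 to 12702 bp, held 1302 positions in 6191 bp, with 123120 calls on 9055 reads in 108 libraries. After it, 4686 bp to the end of the region had no call. Within the main part the longest stretch without a call was 202 bp. Positions near the borders had few calls. The first position inside the region had 1 call, which was methylated, the nearest position before it lay 266 bp away and had 1 methylated call, the last position inside had 2 unmethylated calls, and the next position after the region lay 1337 bp away and had 1 methylated call. Stretches of the same length held 69 calls before the region, of which 62 were methylated, and 78 calls after it, all of them methylated.

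Reads in the region were rare in control cells and ranged over 3 orders of magnitude in EGFP+ cells. A control library had a median of 3 region reads and at most 21, and the share of its reads that lay in the region was at most 0.155%. Shares are taken here of the reads with a CG call, while the study took all uniquely mapped reads. The shares given here are therefore not on the scale of those of the study. No read was seen in 6 control and 2 EGFP+ libraries, which at their depth allows a share of up to between 0.0248% and 0.0805%. In EGFP+ cells the share stayed between 0.0150% and 0.151% at 1 to 14 dpf, and between 0% and 0.0545% in the 3 libraries at 21 dpf. At 25 dpf it was 0.239% in replicate A, with 38 of 15924 reads, 0.129% in replicate B and 0% in replicate C. All 5 libraries of 28 dpf were above every younger library, from 1.91% to 10.1%. Of fish with a presumptive sex, replicates A and C of females at 40 dpf had the highest shares, with 26.5% and 16.04%. They were followed by replicate B of males at 40 dpf with 7.96%, replicate B of females at 45 dpf with 7.95% and replicate B of females at 40 dpf with 7.14%.

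**Figure D1:**
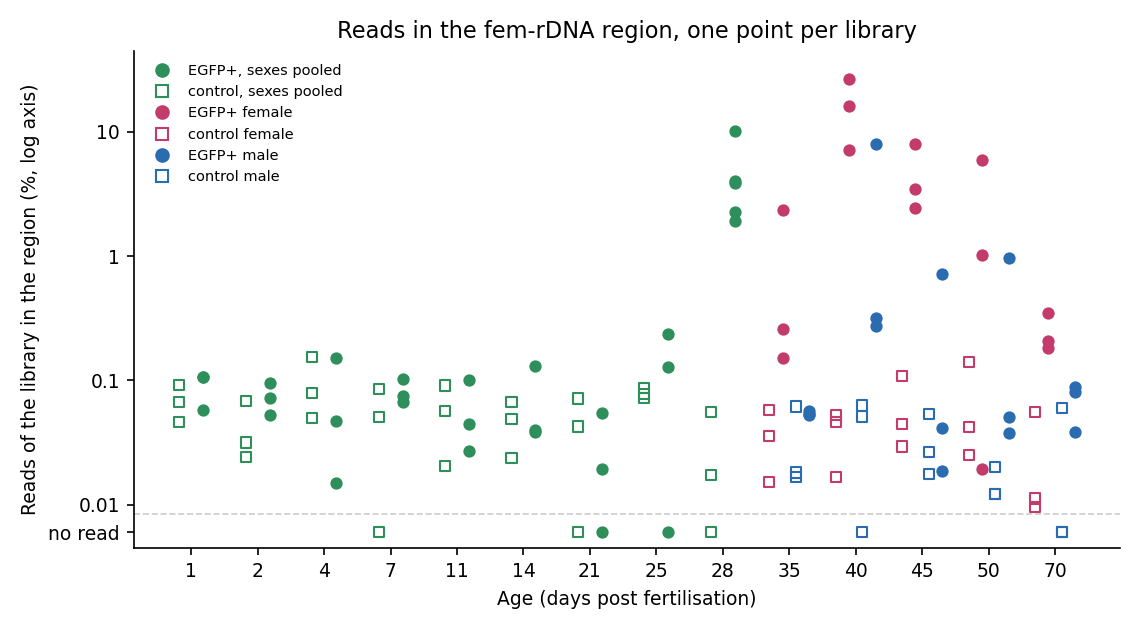
Share of each library's reads with a CG call that lie in the fem-rDNA region (%, log axis) against age in days post fertilisation. Filled circles are EGFP+ and open squares control libraries, and colours mark sex. Libraries without a read sit on the line marked no read. Control libraries stay at or under 0.155%, and the 3 EGFP+ libraries of females at 40 dpf reach 7.14% to 26.5%.

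At 35 to 50 dpf the log2 share of reads (0.5 reads added) was higher in EGFP+ cells of females than of males by 3.58 (exact permutation test within ages, two-sided, p = 0.0017, n = 12 and 12). The mean was higher in females at 4 of 4 ages. Libraries of these ages were not merged to locate the region, but some of them prompted the search for it. The groups overlapped. Replicate C of females at 50 dpf had 0.0196%, less than all but 1 of the male libraries, while replicate B of males at 40 dpf was above 10 of the 12 female libraries. At 70 dpf the shares were 0.206%, 0.183% and 0.352% in EGFP+ cells of females and 0.0882%, 0.0387% and 0.0807% in those of males. The female values at 70 dpf lay far below the 3 female libraries of 40 dpf.

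In control cells the region was mostly methylated. The percentage was 71.6% ± 12.2 (SD, n = 17) at 1 to 14 dpf, 79.1% ± 9.29 (SD, n = 7) at 21 to 28 dpf, 77.6% ± 14.7 (SD, n = 12) in females at 35 to 50 dpf, 84.9% ± 15.1 (SD, n = 11) in males at 35 to 50 dpf and 85.5% ± 9.33 (SD, n = 3) at 70 dpf. The spread between control libraries was wide, and each percentage rests on few reads, 242 over all 57 libraries. Control cells of females and males at 35 to 70 dpf differed by -3.55 percentage points, less than the spread between libraries (permutation test within ages, two-sided, p = 0.519, n = 14 and 12). Without the libraries lettered B this difference was -16.6 points (exact permutation test, p = 0.0262).

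In EGFP+ cells of young fish the region was already less methylated than in control cells, with wide variation between libraries. At 1 dpf the 3 EGFP+ libraries had 37.7%, 0% and 38.8%, and the control libraries had 88.0%, 52.6% and 56.0%, so that the groups did not overlap. Each of these values rests on 2 to 4 reads. At 2 dpf the EGFP+ libraries had 43.6%, 32.6% and 53.6% against 61.7%, 69.0% and 79.3%, again without overlap. At 4 dpf the groups overlapped, with 52.4%, 61.4% and 88.0% in EGFP+ and 72.2%, 48.8% and 65.1% in control cells. The mean was higher in EGFP+ cells there, whose values rest on 1, 5 and 2 reads. At 7 dpf the values were 56.2%, 72.4% and 82.5% against 68.0% and 77.8% in the 2 control libraries with enough calls. At 11 dpf they were 44.6% and 56.7% against 71.4%, 75.0% and 80%, and at 14 dpf 0%, 76.9% and 91.7% against 75.0%, 86.4% and 91.7%.

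Over 1 to 14 dpf, EGFP+ cells had a methylation lower by 19.5 percentage points (-19.5, permutation test within ages, two-sided, p = 0.00266, n = 17 and 17), lower at 5 of 6 ages. No window test was made for these ages. The rest of the genome in the libraries of these ages moved the other way, at 80.5% ± 3.58 in EGFP+ and 77.5% ± 2.35 in control libraries (SD, n = 18 each). The percentages of 0% at 1 and 14 dpf rest on 15 calls of 2 reads and 17 calls of 1 read. Asking at least 30 calls of a library gave -10.4 points (p = 0.033, exact permutation test, n = 13 and 13).

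At 21 dpf the 2 EGFP+ libraries with enough calls were methylated, at 100% from 1 read and 64.1% from 5 reads. At 25 dpf they had 12.5% and 22.98%. At 28 dpf all 5 were nearly unmethylated, with 2.03%, 1.78%, 1.24%, 4.11% and 1.49%. The 2 control libraries with calls at 28 dpf had 86.5% from 2 reads and 69.2% from 1 read. Between 21 and 28 dpf the fall in methylation, from a start that rests on few reads, came with the rise of the share of reads described above. Neither was tested at these ages.

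**Figure D2:**
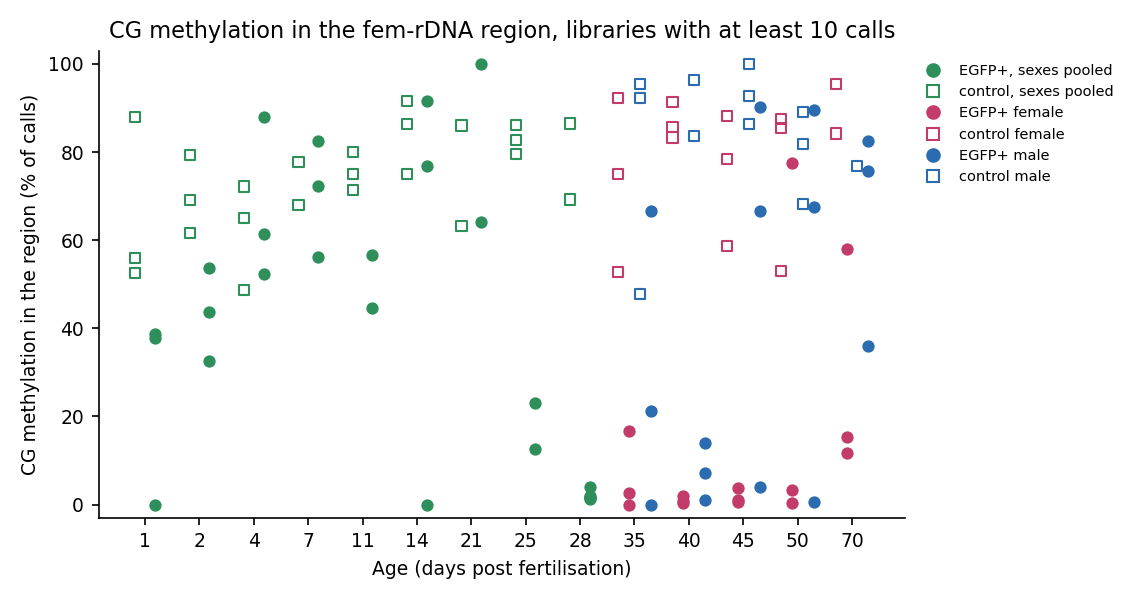
Methylated calls among all CG calls in the fem-rDNA region (%) against age in days post fertilisation, 1 point per library with at least 10 calls, symbols as in the plot of read shares. The 5 EGFP+ libraries of 28 dpf lie at 1.24% to 4.11%, and 11 of the 12 EGFP+ libraries of females at 35 to 50 dpf lie at or under 16.8%.

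In presumptive females at 35 to 50 dpf, the region had a methylation of 9.09% ± 22.0 (SD, n = 12) in EGFP+ and 77.6% ± 14.7 (SD, n = 12) in control libraries. At 35 dpf the EGFP+ libraries had 2.69%, 16.8% and 0%, the last from 80 calls of 5 reads with a 95% Wilson interval of up to 4.58%. At 40 dpf they had 0.417%, 1.87% and 0.820%, at 45 dpf 1.04%, 3.76% and 0.640%, and at 50 dpf 3.39%, 0.283% and 77.4%. The last value, of replicate C at 50 dpf, stands apart from the other 11 and comes from the library with the lowest share of region reads among them, 31 calls on 3 reads. Averaged over ages, EGFP+ cells differed by -68.6 points (p = 2.5e-05, two-sided exact permutation test within ages), lower at 4 of 4 ages, while the rest of the genome was higher in EGFP+ cells by 3.89 points. Per the paper, low methylation over all mapped reads in some EGFP+ libraries, at ages up to 50 dpf, prompted the search for the region. Tests of EGFP+ methylation in the region at 35 to 50 dpf, in either sex, are therefore not independent of how it was found.

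To set this beside the rest of the genome, the test was repeated for windows of 1 Mb of chromosomes 1 to 25, with the region as a feature of its own. Of 921 features 1 passed (0.109%, exact or permutation tests over libraries, Benjamini-Hochberg adjusted p under 0.05), and it was the fem-rDNA region, with an adjusted p of 0.023. Since low methylation in some EGFP+ libraries prompted the search for the region, its place among the windows is not independent of that search. At an unadjusted p under 0.05 there were 92 (9.99%). The other windows had differences of -31.1 to 35.2 points with a median of 4.88. With windows of 10 Mb, 7 of 146 features passed, and the adjusted p of the region was 0.00274. Without the libraries of any 1 letter, 0 windows passed and 25 to 62 had an unadjusted p under 0.05. The region then had an adjusted p of 0.499 to 0.519 (exact permutation tests). With 8 libraries of each kind the smallest possible p of the region was 0.00154 (exact permutation test). That is too large for 1 feature alone to pass the adjustment, so these runs cannot decide whether the call depends on a letter.

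In presumptive males the values at 35 dpf were 66.7%, 21.2% and 0%, and at 40 dpf 14.1%, 0.940% and 7.17%. At 45 dpf they were 3.95%, 90.2% and 66.7%, and at 50 dpf 89.5%, 67.6% and 0.623%. The 5 male libraries with at least 19 region reads had 0.623% to 14.1% methylated calls, while the 7 with at most 6 reads ranged from 0% to 90.2%, and both kinds occurred at 45 and at 50 dpf. EGFP+ cells of males had 35.7% ± 36.9 (SD, n = 12) against 84.9% ± 15.1 (SD, n = 11) in control cells, and differed by -49.6 points on average over ages (p = 0.000837, two-sided exact permutation test within ages), lower at 4 of 4 ages. With at least 30 calls asked of a library the p was 0.0578 (exact permutation test, n = 12 and 5), with a difference of -39.98 points.

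EGFP+ cells of females were less methylated in the region than those of males by 26.6 points (-26.6, exact permutation test within ages, two-sided, p = 0.0365, n = 12 and 12). This call rests on single libraries, since leaving out any of 11 of the 24 in turn gave a p above 0.05, up to 0.0902 without replicate A of males at 50 dpf (exact permutation tests). The other 10 were replicates A and C of females at 35 dpf, A, B and C of females at 45 dpf, A and B of females at 50 dpf, A of males at 35 dpf, B of males at 45 dpf and B of males at 50 dpf. Within sequencing runs, read from the read names, females differed from males by -18.1 points (p = 0.215, exact permutation test). Among windows of 1 Mb, 0 of 872 features passed (0%, permutation tests with Benjamini-Hochberg adjustment) and 39 had an unadjusted p under 0.05 (4.47%), with an adjusted p of 0.926 for the region. The difference between cells was larger in females than in males by 19.0 points, which did not pass its own test (permutation test, two-sided, p = 0.194). Without the libraries lettered C it was 37.0 points (-37.0, permutation test, p = 0.0485), and without those lettered B 3.70 points (-3.70, permutation test, p = 0.84).

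At 70 dpf the EGFP+ cells of females had 11.8%, 58.0% and 15.4%, and the 2 control libraries with enough calls had 95.5% and 84.2%. The EGFP+ cells of males had 82.5%, 75.8% and 35.9%, and the only control library with enough calls had 76.9%. The groups of females did not overlap, and those of males did. The control values rest on 1 and 18 reads in females and on 2 reads in males. The difference over both sexes was -36.8 points and did not pass (exact permutation test within sexes, two-sided, p = 0.075, n = 6 and 3), where the smallest possible p is 0.025. Without the control library of males it was -61.5 points, from females alone, and without the libraries lettered B -81.9 points from 2 EGFP+ libraries and 1 control library.

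In 15 EGFP+ libraries the region had at least 1000 calls, and these are called well covered libraries below. Their number of calls depends on depth as well as on the share of reads. The study speaks of amplification by a share of all mapped reads, which differs from the share used here. It also measured amplification by quantitative PCR against somatic ribosomal DNA in separately grown fish. Because of depth, replicate B at 28 dpf, with 1.91% of its reads and 786 calls in the region, is not among them. Replicate C of males at 50 dpf, with 0.960%, is. They are replicates A, C, D and E at 28 dpf, A of females at 35 dpf, B of males at 40 dpf, A to C of females at 40 and 45 dpf, C of males at 50 dpf, and A and B of females at 50 dpf. Low methylation was shared by all of them, from 0.283% in replicate B of females at 50 dpf (95% Wilson interval 0.193 to 0.415%) to 4.11% in replicate D at 28 dpf (3.27 to 5.16%). They covered between 745 and 1249 of the positions. Of their region reads between 3.36% and 57.1% had the same call positions as another read of the library. Repeats of 1 fragment and reads of separate copies cannot be told apart here. Counting such reads once left the percentages between 0.281% and 4.33%, and that of the library with 57.1% moved from 0.417% to 0.525%.

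Bins of 500 bp, named by their distance from the start of the region, had low methylation along the whole main part in EGFP+ libraries of 28 dpf and of females at 35 to 50 dpf. In merged EGFP+ libraries of 1 to 14 dpf, 11 bins had at least 10 calls and varied widely. They ranged from 8.33% in the bin from 12501 bp, with 1 read, to 65.1% in the bin from 7001 bp, with 5 reads. The bin from 7501 bp, with 211 calls, had 47.4%, and the bin from 8501 bp, with 140 calls, 60.7%. In the merged EGFP+ libraries of females at 35 to 50 dpf, 15 bins had at least 10 calls and held between 0% and 2.41% methylated calls. At 28 dpf the bins ranged from 0% to 2.97%. The bin from 11001 bp was the highest in both sets, with 2.41% of 1991 calls and 2.97% of 640 calls. The order rests on merging, in which libraries with many calls weigh most. By the mean over libraries with at least 3 calls in the bin, the highest was the bin from 6501 bp in females at 35 to 50 dpf (9.88% ± 26.3, SD, n = 11) and the bin from 7001 bp at 28 dpf (5.73% ± 6.20, SD, n = 5), while the bin from 11001 bp had 4.75% ± 8.51 (SD, n = 10) and 2.08% ± 3.44 (SD, n = 5). The merged control libraries ranged from 50.5% in that same bin, with 93 calls on 11 reads, to 89.8% in the bin from 12501 bp, with 88 calls on 7 reads. Merged control libraries thus lay above the merged EGFP+ libraries of 28 dpf and of females at 35 to 50 dpf in each of the 13 bins of the main part.

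Coverage in merged EGFP+ libraries of females at 35 to 50 dpf was set beside that in merged control libraries of all ages and sexes. The bin from 7501 bp held the largest share of region reads, 14.9% in these EGFP+ cells and 19.0% in control cells. The bin from 12501 bp held the smallest in the main part, 1.36% and 2.89%. In control cells of 35 to 50 dpf alone the largest share lay elsewhere. It was 23.3% from 6501 bp in females, on 43 region reads, and 22.5% from 9501 bp in males, on 40. In EGFP+ females calls per position ranged from 30.1 in the bin from 12501 bp to 99.1 in the bin from 7501 bp. Near the start of the region, the bin from 501 bp had 40.0 calls per position there and 9 calls on 1 read in control cells.

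**Figure D3:**
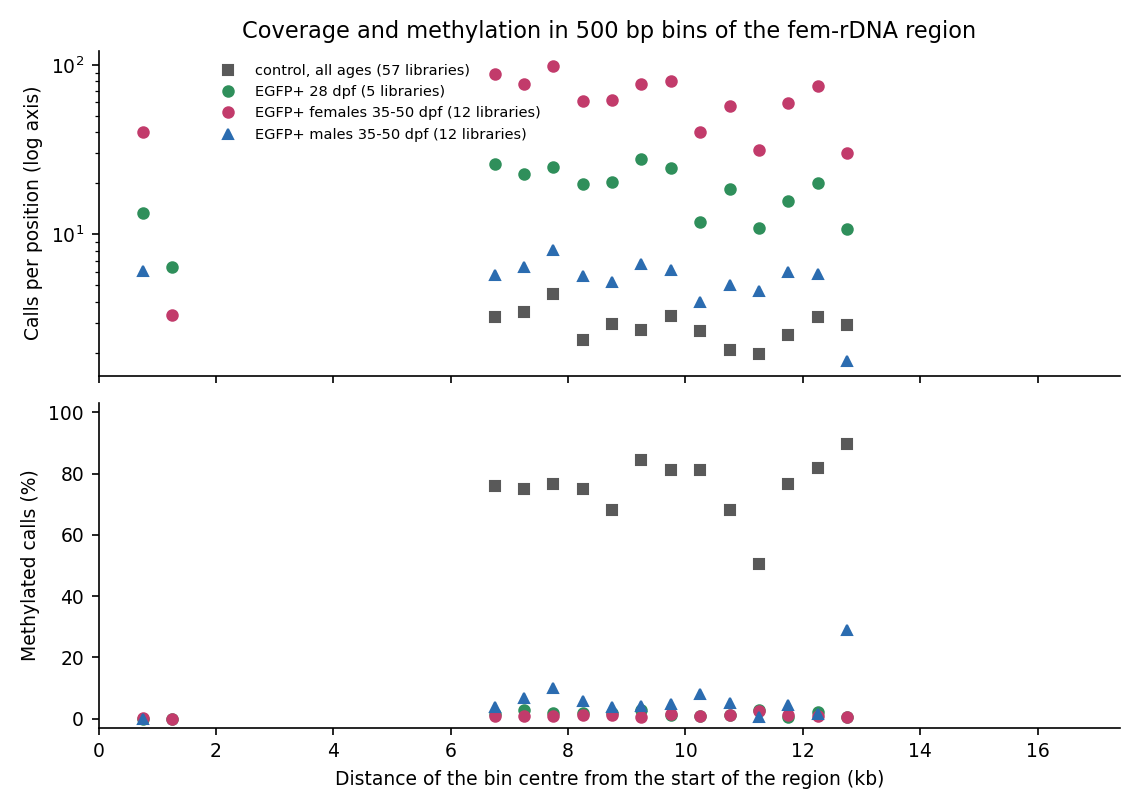
Calls per position (log axis, top) and methylated calls (%, bottom) in bins of 500 bp with at least 10 calls, against the distance of the bin centre from the start of the region in kb, for merged libraries of 4 sets. In the main part the control bins lie at 50.5% to 89.8%, and those of EGFP+ females at 35 to 50 dpf at 0.462% to 2.41%.

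Bins were tested across the genome wherever at least 5 EGFP+ libraries of females and 5 control libraries of either sex at 35 to 50 dpf had at least 3 calls, with labels exchanged over all these libraries, across ages and sexes. Of 24 bins 7 passed (29.2%, permutation tests, Benjamini-Hochberg adjusted p under 0.05), all with lower methylation in EGFP+ cells. All 7 were in the fem-rDNA region, which had 7 bins tested. Outside it 0 of 17 passed (0%), with 2 at an unadjusted p under 0.05 (11.8%). The differences in the region were between -94.1 points in the bin from 9001 bp (0.637% against 94.7%, n = 10 and 7, exact permutation test, adjusted p = 0.000309) and -63.8 points in the bin from 6501 bp (9.88% against 73.7%, n = 11 and 10, permutation test, adjusted p = 0.00336). Neighbouring bins share reads and libraries, so these are not 7 independent results. They are also not independent of how the region was found, since low methylation in some EGFP+ libraries prompted the search for it. EGFP+ libraries with enough calls numbered 10 to 11 in the bins of the region and 5 to 12 in the others, with fewer than 10 in most. The counts inside and outside the region are therefore not compared on equal terms. Without the libraries lettered A, 2 of 3 region bins tested passed, and with control libraries of females only, 3 of 3.

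Among the best covered positions, none kept a high methylation in EGFP+ females at 40 dpf. Replicate A held 49157 of the 59737 region calls of these libraries. In the merged EGFP+ libraries of females at 40 dpf, 130 positions had at least 100 calls, and 0 of them were at 10% or more. Of the 130 positions, 63 had no methylated call. The highest was position 76321055, with 3 of 124 calls or 2.42%, and it was unmethylated in all 62 calls of the EGFP+ libraries of 28 dpf and of females at 35, 45 and 50 dpf. The positions with methylated calls at 40 dpf were then read in these other libraries. Of 244 positions with a methylated call at 40 dpf, 61.9% also had 1 in the others, where 1.85% of their calls were methylated, and of 697 positions without 1 at 40 dpf, 56.8% had 1 in the others, where 2.01% of calls were methylated. Over these 941 positions with at least 20 calls in both sets, Spearman's rho was 0.0075 and Pearson's r 0.029, given as a description because positions of a read share it. At 28 dpf, 15 of 632 positions with at least 20 merged EGFP+ calls were over 10% methylated, the highest at 15%. In females at 35 to 50 dpf it was 2 of 1081, the highest at 14.3%, and at 40 dpf alone 0 of 972.

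The position with most calls was 76323428, with 369 over all libraries. It was methylated in 9 of 363 EGFP+ calls and in 5 of 6 control calls. Position 76323502 had 10 control calls, 9 of them methylated, and 8 of 326 EGFP+ calls. Control cells had at least 10 calls at only 6 positions, and the lowest of them were 76320858 and 76320881, each methylated in 5 of 10 calls. EGFP+ cells had 4 methylated of 156 and 2 of 148 calls at them.

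Read by read, most of the region's reads carried no methylated call. Of 9013 reads with at least 4 calls, 8067 had no methylated call, 81 were methylated at every call and 865 were mixed, with calls of both kinds. In control cells 177 of 235 reads were mixed, with a median of 81.2% methylated calls in a mixed read, 9 were unmethylated and 49 methylated throughout. In EGFP+ cells of females at 35 to 50 dpf 5941 of 6296 reads were unmethylated and 347 mixed, and 280 of these mixed reads held a single methylated call. Of these reads 44 (0.699%) had between 20% and 80% methylated calls. Replicate A of females at 40 dpf held 3581 of the 6296 reads. In that library 57.1% of region reads had the same call positions as another read. Unmethylated reads and reads methylated at 50% or more of their calls were also found within the same library, in several libraries. Replicate A of females at 35 dpf had 533 and 10 of them. In replicate B of females at 35 dpf, with 16.8%, 43 of 57 reads were unmethylated and 10 were methylated at 50% or more of their calls. Intermediate reads were more frequent at 1 to 14 dpf, with 57 of 100 control reads and 34 of 67 EGFP+ reads between 20% and 80%.

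**Figure D4:**
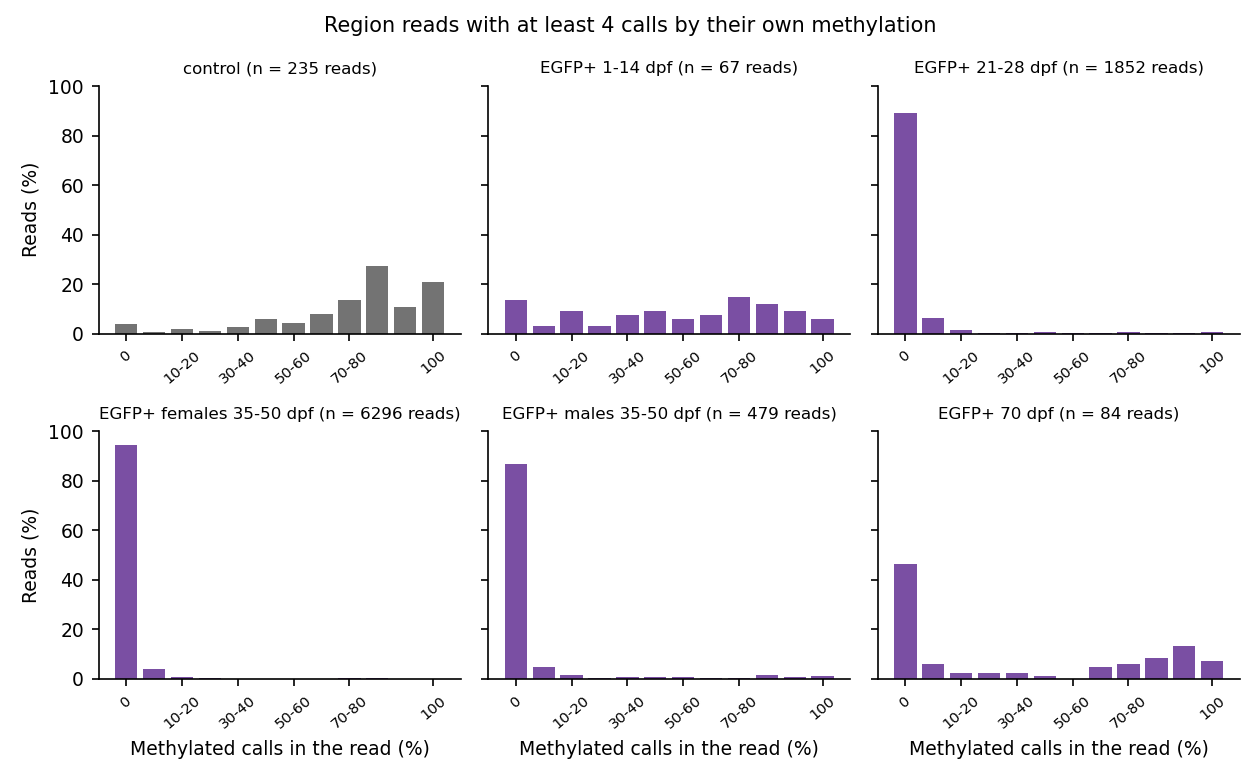
Region reads with at least 4 calls by the percentage of their own calls that are methylated (classes on the x axis, from 0 to 100% with classes of 10 points between), as a percentage of the reads of each set. Of the 6296 reads of EGFP+ females at 35 to 50 dpf 94.4% fall in the class at 0, and control reads gather towards 100%. Replicate A at 40 dpf holds 3581 of the 6296 reads.

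Mixed reads made up 15.3% ± 27.2 (SD, n = 12) of the region reads with at least 4 calls in EGFP+ libraries of females at 35 to 50 dpf and 58.9% ± 12.8 (SD, n = 5) in control libraries with at least 3 such reads. The 2 kinds of cell differed by -43.6 points (p = 0.00625, two-sided exact permutation test within ages). A read is mixed only if it holds both kinds of call, so this measure is tied to the methylation level. That level was tested above in the same females, and the difference in mixed reads is not a separate result. The range in EGFP+ libraries was 0% to 100%, with a median of 6.46%, and replicate C at 50 dpf was the library at 100%, with 3 of 3 reads. The range in control libraries was 42.9% to 75.0%. Without the libraries lettered A, 2 libraries of each kind were left and they differed by -7.07 points (p = 1, exact permutation test).

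Reads that were methylated at 50% or more of their calls were present in well covered libraries too, and their frequency did not differ detectably between the cells. This measure and its limit were chosen after the reads had been seen. Per 10000 reads of a library, EGFP+ libraries of females at 35 to 50 dpf had 4.68 ± 6.51 and control libraries 4.50 ± 3.72 such reads (SD, n = 12 each), a difference of 0.187 that did not pass (exact permutation test within ages, two-sided, p = 0.947), with an interval from -4 to 4.75 from the same test. The reads of a library include its region reads, 26.5% in replicate A of females at 40 dpf, which lowers the rate in such EGFP+ libraries. Many of these rates rest on few reads. Reads under that limit numbered 597 ± 780 against 0.623 ± 0.951 per 10000 (SD, n = 12 each). In well covered libraries the methylated reads ranged from 0 in 3 of the 15 to 22.7 per 10000 in replicate B of females at 45 dpf.

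**Figure D5:**
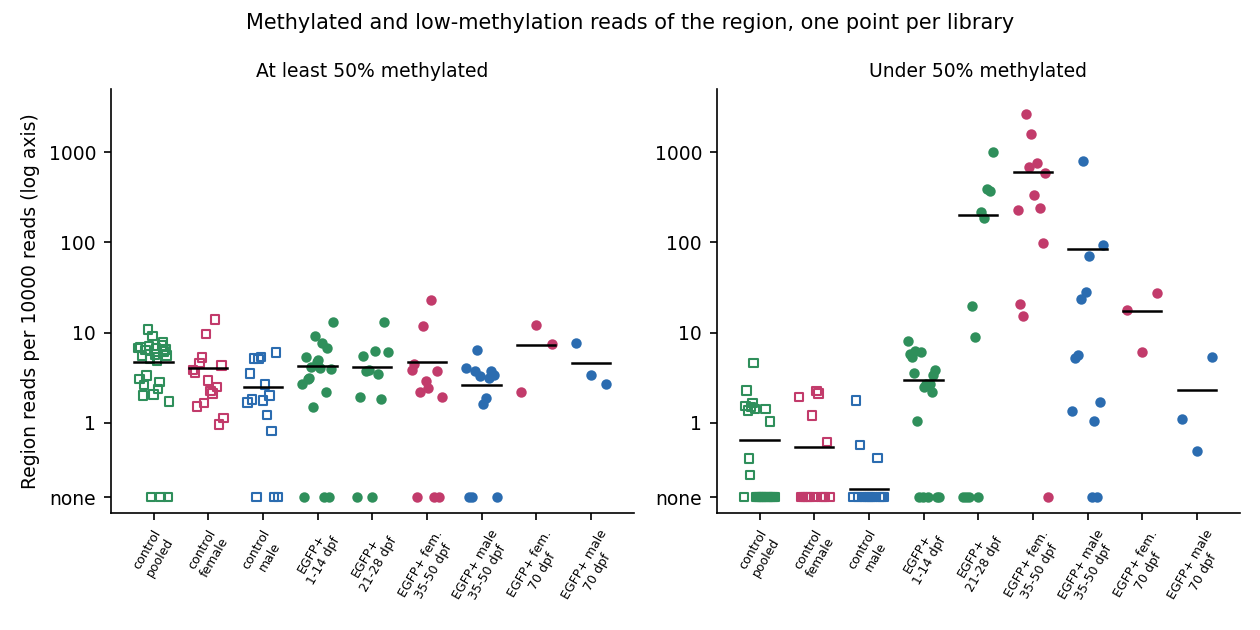
Region reads per 10000 reads of the library (log axis) with at least 50% (left) and under 50% (right) of their calls methylated, 1 point per library and a bar at the mean of each set; points marked none had no such read. In females at 35 to 50 dpf the means are 4.68 in EGFP+ and 4.50 in control libraries on the left, and the EGFP+ mean is 597 on the right.

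In the reads under the limit, methylated calls were few and scattered. How many of them came from failed conversion was not tested. Over the 15 libraries they made up 653 of 113459 calls (0.576%). Of 1314 positions, 837 had none, 355 had methylated calls in 1 library, 107 in 2, 14 in 3 and 1 in 4. Of 438 positions with at least 100 such calls, 5 were at 2% or more. The highest was 76322012, with 6 of 104 calls methylated (5.77%) in 3 libraries, and it was followed by 76322114 with 3 of 102 calls and by 76323201 with 3 of 120.

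In the 386 methylated reads, 206 of control and 180 of EGFP+ libraries, positions differed more. Of 523 positions with at least 5 calls in them, 161 were methylated in every call, 29 in under 50% and the median was 84.6%. Only 4 were never methylated, and they formed 2 neighbouring pairs, 76321132 with 76321133 and 76321188 with 76321189, noticed after the values had been seen. They had 0 methylated of 7, 11, 6 and 6 calls in methylated reads. Over all reads they had 1 of 116, 0 of 291, 0 of 129 and 1 of 225 calls methylated, which includes control cells, where all 16 calls were unmethylated. Whether these positions are CGs in every copy of the DNA was not tested, since no genome of this build was used.

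Methylation was close on both strands. The strand of a read was inferred from the pairs of neighbouring positions it covered, and 94.2% of 9056 reads with such a position gave the same strand at every pair. At 113 pairs with at least 3 control calls on each strand, 79.96% and 77.65% of calls were methylated on the 2 strands, and at 556 pairs in EGFP+ cells 2.51% and 2.17%.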

How the data were processed

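Whole genome bisulfite libraries were made by post-bisulfite adaptor tagging at low coverage. The authors trimmed reads with Trim Galore, mapped them with Bismark 0.19.0 and extracted CG calls. Each deposited file lists 1 call per line, a categorical score of methylated or unmethylated with its read, chromosome and position, without normalization, and deposited replicates are not pooled. The labels name GRCz10 and the methods GRCz11. The highest position on chromosome 4 was 76624474, and no position was converted. Titles of 6 libraries give 11 dpf where another label gives 7, and the title was used. Bismark keeps reads with a unique best alignment, so that reads of near-identical copies elsewhere in the assembly would be lost, which was not tested.

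Software was scipy 1.17.1, pandas 2.3.3 and numpy 2.4.6 under Python 3.11.15, with matplotlib 3.10.9 for plots. Comparisons used permutation tests over libraries, two-sided, with labels exchanged within ages or sexes, except for bins, where they were exchanged over all libraries. Up to 200000 arrangements were listed (exact), otherwise 100000 were drawn, for which the smallest p is 1e-05. Windows and bins were tested on simulated calls first. Region members, bins and tests were chosen with earlier results of these data known. Named positions were those with at least 100 calls in EGFP+ females at 40 dpf and at least 10% methylation. None met the second limit, so the highest is given, and other positions were named after their values were seen. Replicates are separate pools or fish per the labels. Alternatives changed the call minimum, the weighting of reads, repeated reads, the stretch, the run, the replicate letter and single libraries.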

Additional observations from a re-analysis of the deposited data

Results flagged for a closer look

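EGFP+ cells at 28 dpf were the only group of more than 3 libraries and were examined for a library far from the others. Chance marks about 1 in 20 such groups for a single measure, and more than a single measure was examined. These libraries helped to locate the region, so the gaps are given as a description without a test. Methylated region reads per 10000 reads were also examined, and the gap of the highest library there was 0.614 of the range. Replicate D had 4.11% methylated calls in the region, and its gap to the nearest library was 0.723 of the range of the group. Replicate E had 10.1% of its reads in the region, with a gap of 0.743 of the range. The other libraries of this age had methylation of 1.24% to 2.03% and shares of 1.91% to 4.03%, and replicate D had 4 reads methylated at 50% or more of their calls among 117.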

How the results depend on the processing

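Of 268 alternatives over the results, 237 were counted as unchanged. For a test this means the same direction and the same side of the threshold of 0.05, also where the main result did not pass. For the count of called bins it means a count equal or close to the main one. Many of the 268 left out a single library and were added after the planned ones. Such runs change a mean little, so the count says less about the other alternatives. The lower methylation of EGFP+ cells in females and at 1 to 14 dpf kept its direction and side of the threshold under all alternatives. So did the higher share of reads in females. In males a minimum of 30 calls gave -39.98 points (exact permutation test, p = 0.0578), with fewer libraries tested. The difference between EGFP+ cells of females and males ranged from -40.5 to -19.1 points with letters or single libraries left out, was -18.1 within sequencing runs and -26.6 with the replicate block (p = 0.0742, exact permutation of the signs of the pairs). Leaving out letters gave -16.6 to -0.198 points between the sexes of control cells, and -37.0 to -3.70 points for the difference between sexes in the difference between cells. The mixed reads of females ranged from -51.5 to -7.07 points with letters or single libraries left out, and were -33.9 points in 5 pairs with the replicate block (exact, p = 0.125, with 5 pairs). Whether replicate letters pair samples could not be decided. Deviations from group means had a correlation of 0.26 between EGFP+ and control libraries of the same letter (47 pairs), with few region reads in control libraries. Between those of different letters it was -0.127 (99 pairs). Deviations cancel within a group, so the second value largely follows from the first and is no separate comparison. The block changed no other call.

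The difference in methylated reads changed sign with a limit of 70% of calls (-0.775 per 10000 reads) and with repeated reads counted once (-0.157), and ranged from -1.38 to 1.28 without a letter. None of these passed. The number of region bins called was 4 with at least 8 libraries of each kind, 3 with control libraries of females only and 2 to 5 without a letter, where fewer bins were tested. Windows of 10 Mb gave 7 calls in females, the region among them. Without a letter 0 windows passed, where 8 libraries of each kind allow fewer arrangements, with 25 to 62 at an unadjusted p under 0.05 (permutation tests). Libraries with few reads limit all values of control cells.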
